A study of Mus musculus with 7 samples.

Results

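Cytochrome c oxidase, the last enzyme of the mitochondrial respiratory chain, was examined through 10 genes for its nuclear-encoded subunits. They are the muscle and ubiquitous forms of subunits VIa (Cox6a2 and Cox6a1), VIIa (Cox7a1 and Cox7a2) and VIII (Cox8b and Cox8a), the forms Cox4i2 and Cox4i1 of subunit IV, and Cox5a and Cox5b, which have no muscle partner. Members were taken by gene symbol, and all 10 were found among the 19938 genes with a named probe set. In 9 of them a single probe set carried the symbol, and for Cox5b the brighter of its probe sets was used. RNA came from extensor digitorum longus, which in mice is a hindlimb muscle of mainly fast fibres, and each sample was hybridised to its own array. The 3 AMPKα1α2 double knockout samples lacked, by their label, both catalytic subunits of AMP-activated protein kinase, the kinase that responds to falling cellular energy. They were set against 4 wild type samples, and all 7 shared a mixed C57/Bl6 and SV129 background. Nothing in the labels says that samples of a group came from separate animals, so p-values measure the spread between these samples, which may be technical. The labels give no age, sex, exercise state, deleted exon, or promoter that drove the deletion, and so do not say whether it was limited to muscle.

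The oxidase passes electrons from cytochrome c to oxygen and pumps protons. Its catalytic core is encoded by mitochondrial DNA, while nuclear genes supply the surrounding subunits that regulate and stabilise it. In mammals several of these subunits exist as a form restricted largely to heart and skeletal muscle and a form found in most tissues, and striated muscle builds much of its oxidase with the muscle forms. The contrast of the forms therefore asks whether the oxidase genes of muscle differed together between the genotypes, or whether the make-up by form differed as well.

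The arrays were checked first. Prkaa1, which encodes the α1 subunit, read 9.09, 9.19 and 8.80 log2 units in knockout muscle, against 9.54, 9.48, 9.61 and 9.53 in wild type, a difference of -0.51 ± 0.09 (limma adjusted p = 0.12). Prkaa2, which encodes α2, read 12.04, 11.95 and 12.04 in knockout and 12.31, 12.03, 12.28 and 12.28 in wild type muscle, where wild type replicate 2 lay among the knockout values. It differed by -0.21 ± 0.07 (limma adjusted p = 0.39). Where these probe sets lie relative to the deleted parts is not known here, so they do not check the labels. The skeletal muscle genes Ckm, Acta1, Myh4, Mylpf and Tnnt3 lay at or above percentile 99.2 of every array. Array medians ran from 7.501 to 7.584. Knockout replicate 3 stood apart, with an array weight in limma of 0.294 against 0.765 to 1.99 for the other arrays, and values without it are given where they matter.

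Across the 10 genes the knockout mean was below the wild type mean in every case, by 0.03 to 0.31 log2 units, with a median difference of -0.16 against -0.0049 for all genes. None passed an adjusted p of 0.05 in limma with Benjamini-Hochberg adjustment over the 21789 probe sets with 1 gene symbol, a threshold that 0.0251% of all genes passed (0.00502% lower and 0.0201% higher in knockout). At an unadjusted p under 0.05, 9 of the 10 were lower in knockout muscle, the exception being Cox8a, while 6.69% of all genes were lower and 3.93% higher by that rule. For 8 of the 10, the highest knockout array was still under the lowest wild type array, an order found in 5.33% of all genes (3.29% had the opposite order, and 0 of the 10). A difference below 0 was seen in 53.3% of all genes. The members were chosen with earlier results of these arrays known, so these counts describe them and are not an independent test. In RNA of a whole muscle, fewer cells of a type and less RNA per cell cannot be told apart.

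**Figure D1:**
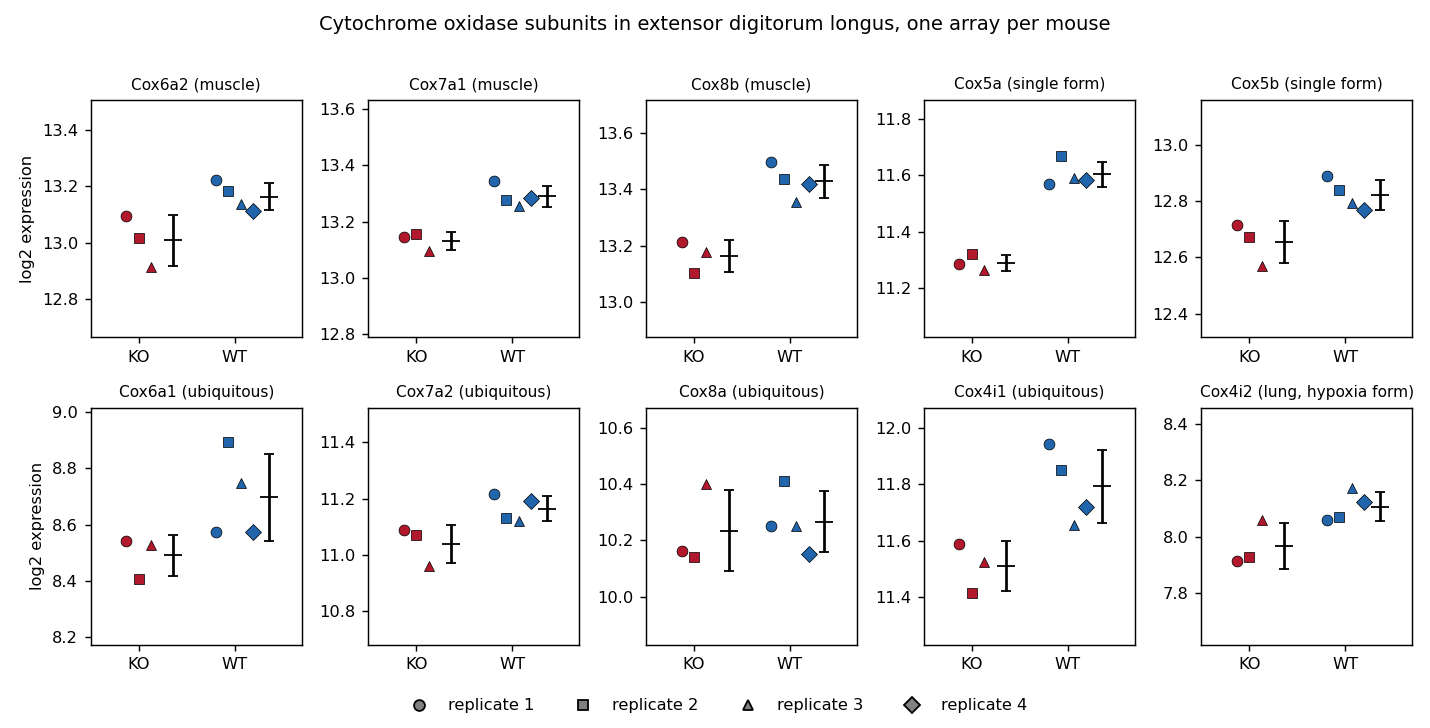
Log2 expression (y axis, each panel spanning the same range of log2 units) of the 10 genes in 3 knockout arrays (red) and 4 wild type arrays (blue), with the mean and SD of each group beside the points. In 8 panels the knockout points lie below all wild type points. Cox8a overlaps widely, and in Cox4i2 knockout replicate 3 equals wild type replicate 1 at 8.06. The title's array per mouse is an assumption, since the labels do not say that samples came from separate animals.

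The isoform pairs are encoded apart in the genome, and where both partners could be read their upstream regions differ in composition. RefSeq's promoter table for mouse build GRCm38.p6 held 7 of the 10 genes. The 250 bases before the start that the table lists, which for Cox7a2 and Cox5a lies inside the span of the gene, are printed 5′ to 3′ on the gene's strand for the pairs in which both partners were held, with each CG pair in capitals, to show how the partners differ in composition. Cox8b lies at chr7:140900447-140900696 on the minus strand and Cox8a at chr19:7217617-7217866 on the minus strand. Cox7a1 lies at chr7:30183921-30184170 on the plus strand and Cox7a2 at chr9:79759854-79760103 on the minus strand.
Cox8b: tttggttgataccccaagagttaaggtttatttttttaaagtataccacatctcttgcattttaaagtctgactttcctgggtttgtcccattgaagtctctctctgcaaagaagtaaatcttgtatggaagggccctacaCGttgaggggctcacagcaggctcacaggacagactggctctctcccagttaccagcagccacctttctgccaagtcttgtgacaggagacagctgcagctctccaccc
Cox8a: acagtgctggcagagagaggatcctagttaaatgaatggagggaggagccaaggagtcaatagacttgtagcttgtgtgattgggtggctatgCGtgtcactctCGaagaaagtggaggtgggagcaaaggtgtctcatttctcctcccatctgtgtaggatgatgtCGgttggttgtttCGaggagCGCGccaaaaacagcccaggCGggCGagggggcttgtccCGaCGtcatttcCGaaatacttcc
Cox7a1: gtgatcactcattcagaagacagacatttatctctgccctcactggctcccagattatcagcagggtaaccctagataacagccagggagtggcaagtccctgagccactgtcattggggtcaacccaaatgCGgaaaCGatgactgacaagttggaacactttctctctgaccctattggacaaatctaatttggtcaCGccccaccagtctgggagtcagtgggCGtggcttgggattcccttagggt
Cox7a2: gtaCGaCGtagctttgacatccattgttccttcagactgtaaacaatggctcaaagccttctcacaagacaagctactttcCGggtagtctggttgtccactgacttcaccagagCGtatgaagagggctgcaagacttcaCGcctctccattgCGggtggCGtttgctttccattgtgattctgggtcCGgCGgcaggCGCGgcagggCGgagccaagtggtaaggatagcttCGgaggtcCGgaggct
In the pairs printed, the muscle form had fewer CG pairs than its partner. Cox6a2 was not held, so the VIa pair was not compared. Cox8b held 1 and Cox8a 11, while Cox7a1 held 4 and Cox7a2 14. Among all 32851 promoters in the table the median was 6, with quartiles of 2 and 16. The ubiquitous Cox6a1 held 26, and the single-form genes Cox5a and Cox5b held 26 and 22.

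Motifs of factors known for oxidative or muscle genes were searched in the same 250 bases on both strands. The NRF1 motif was found in 1 of the 7 members, Cox6a1, with starts at -162 (on both strands, 1 stretch of letters) and -117 from the gene's start, and in 3.74% of all promoters. Cox6a1 also held the GABP motif CCGGAAG at -16 on its minus strand, which 6.91% of all promoters hold. The E-box CAGCTG was found in Cox8b alone, at -19, against 13% of all promoters. The ERR motif AAGGTCA (4.08% of all promoters), the MEF2 motif (2.92%) and TATAAA (12.4%) were in 0 of the 7. The MEF2 and TATAAA motifs can share letters. A match describes letters in this window only.

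Among the muscle forms, Cox8b differed most. Subunit VIII is the smallest of the oxidase, and Cox8b is its heart and skeletal muscle form, which is a pseudogene in humans. It read 13.21, 13.10 and 13.18 log2 units in knockout muscle, against 13.50, 13.44, 13.36 and 13.42 in wild type. The groups did not overlap. The difference was -0.26 ± 0.04 (moderated SE), or 1.2004-fold lower (limma adjusted p = 0.12), and 2.3% of all genes had a lower difference. When single arrays were left out it ran from -0.288 to -0.232.

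Cox7a1, the heart and skeletal muscle form of subunit VIIa, showed a smaller but even difference. Its values were 13.14, 13.16 and 13.09 in knockout and 13.34, 13.28, 13.26 and 13.28 in wild type muscle, with no overlap. The means were 13.13 ± 0.03 (SD, n = 3) in knockout and 13.29 ± 0.04 (SD, n = 4) in wild type, a difference of -0.16 ± 0.03 (SE; limma adjusted p = 0.18). Without knockout replicate 3 the difference was -0.14. Cox6a2, the muscle form of subunit VIa, which lies where the monomers of the enzyme meet, read 13.09, 13.02 and 12.91 in knockout muscle against 13.22, 13.18, 13.14 and 13.11 in wild type. All knockout arrays were lower; knockout replicate 1 (13.09) lay just under wild type replicate 4 (13.11). Its difference was -0.16 ± 0.05 (limma adjusted p = 0.37), and leaving out knockout replicate 3 gave -0.108, leaving out knockout replicate 1 -0.198.

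The ubiquitous partners were less alike. Cox6a1 read 8.54, 8.41 and 8.53 in knockout muscle and 8.57, 8.89, 8.75 and 8.57 in wild type. Its groups did not overlap, but the wild type arrays spread by an SD of 0.15 (n = 4), against 0.07 (n = 3) in knockout. The difference was -0.21 ± 0.09 (limma adjusted p = 0.47), and -0.141 without wild type replicate 2, the highest array. Cox7a2 read 11.09, 11.07 and 10.96 in knockout and 11.22, 11.13, 11.12 and 11.19 in wild type muscle, again without overlap. It differed by -0.13 ± 0.04 (limma adjusted p = 0.40), or by -0.086 without knockout replicate 3.

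Cox8a, the ubiquitous form of subunit VIII, was the member whose difference lay within its standard error. It read 10.16, 10.14 and 10.40 in knockout muscle against 10.25, 10.41, 10.25 and 10.15 in wild type, and the groups overlapped throughout. Knockout replicate 3 (10.40) lay beside wild type replicate 2 (10.41), the highest array. The means were 10.23 ± 0.14 (SD, n = 3) in knockout and 10.27 ± 0.11 (SD, n = 4) in wild type, a difference of -0.03 ± 0.08 (limma adjusted p = 0.93). Its sign rested on single arrays. Leaving out wild type replicate 2 gave 0.015, leaving out knockout replicate 1 gave 0.004 and leaving out knockout replicate 2 gave 0.013. Leaving out knockout replicate 3 gave -0.115.

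Cox5a and Cox5b carry no muscle form, so every oxidase contains them. Cox5a, which sits on the matrix side of the enzyme, had the largest difference of the 10. It read 11.28, 11.32 and 11.26 log2 units in knockout muscle, against 11.57, 11.67, 11.59 and 11.58 in wild type. Knockout and wild type arrays were each tight, with SDs of 0.03 (n = 3) and 0.04 (n = 4), and the groups lay far apart relative to them. The difference was -0.31 ± 0.04 or 1.24-fold lower (limma adjusted p = 0.083), rank 8 of 19938 genes by p, and 1.42% of all genes had a lower difference. It ran from -0.332 to -0.292 over the 15 alternatives, with limma adjusted p between 0.0505 (filter on dim probe sets) and 0.341 (replicate number as a block). Cox5b, the zinc-binding matrix subunit, read 12.72, 12.67 and 12.57 in knockout and 12.89, 12.84, 12.79 and 12.77 in wild type muscle, without overlap. It differed by -0.17 ± 0.05 (limma adjusted p = 0.30), and its second probe set, read on the same arrays, differed by the same -0.17. Without knockout replicate 3 the brighter probe set gave -0.128.

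Subunit IV carries the nucleotide-binding sites through which ATP slows the enzyme. Cox4i1, its ubiquitous form and the one found in muscle, read 11.59, 11.42 and 11.52 in knockout muscle against 11.94, 11.85, 11.66 and 11.72 in wild type. The groups did not overlap, and the wild type arrays spread more than the knockout arrays (SD 0.09, n = 3, in knockout and 0.13, n = 4, in wild type). The difference was -0.28 ± 0.08, or 1.22-fold lower (limma adjusted p = 0.29), and -0.233 without wild type replicate 1. Cox4i2, the form known from lung and from hypoxia, read lowest of the 10. Its values were 7.91, 7.93 and 8.06 in knockout and 8.06, 8.07, 8.17 and 8.12 in wild type muscle, a little above the array medians. The filter on dim probe sets kept it. Its groups met at 8.06, where knockout replicate 3 and wild type replicate 1 held the same value. It differed by -0.14 ± 0.05 (limma adjusted p = 0.40), and by -0.186 without knockout replicate 3. Exact ties of this kind, seen in 3 of the 10 members and in 59.4% of all genes, limit how finely neighbouring arrays can be ordered.

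**Figure D2:**
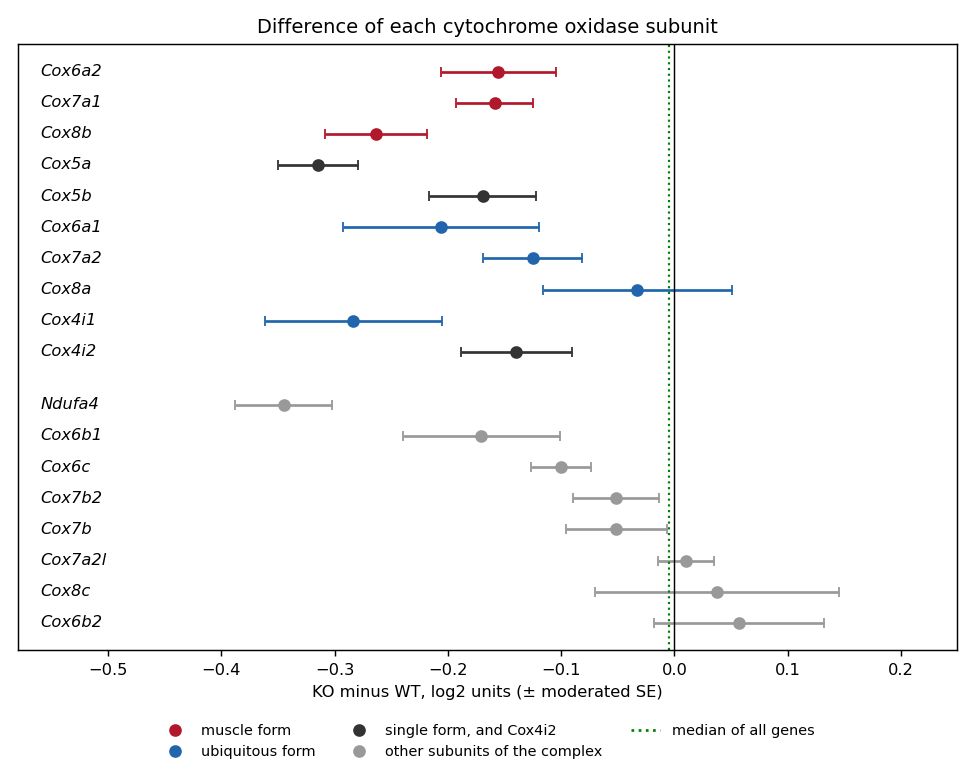
Knockout minus wild type difference in log2 units (x axis) with its moderated standard error for the 10 genes and, below a gap, 8 other subunits of the oxidase, coloured by form. Cox5a (-0.31), Cox4i1 (-0.28) and Cox8b (-0.26) lie farthest to the left of the 10, Cox8a (-0.03) lies near the median of all genes, and Ndufa4 (-0.35) lies lowest of the other subunits.

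The members lay in the lower flank of the differences of all genes. Cox5a, Cox4i1 and Cox8b were each among the lowest 2.3%, with 1.42%, 1.89% and 2.3% of all genes below them. Cox6a1 had 4.25% of genes below it, and Cox5b, Cox7a1, Cox6a2, Cox4i2 and Cox7a2 had between 6.21% and 10.2%. Cox8a, with 34.4% below it, lay in the body of the distribution. The lowest were a single-form gene (Cox5a), a muscle gene (Cox8b) and the ubiquitous Cox4i1, whose partner is no muscle form. Within the muscle pairs, Cox8b (2.3%) lay below Cox8a (34.4%) and Cox7a1 (6.99%) below Cox7a2 (10.2%). Cox6a2 (7.24%) lay above Cox6a1 (4.25%).

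**Figure D3:**
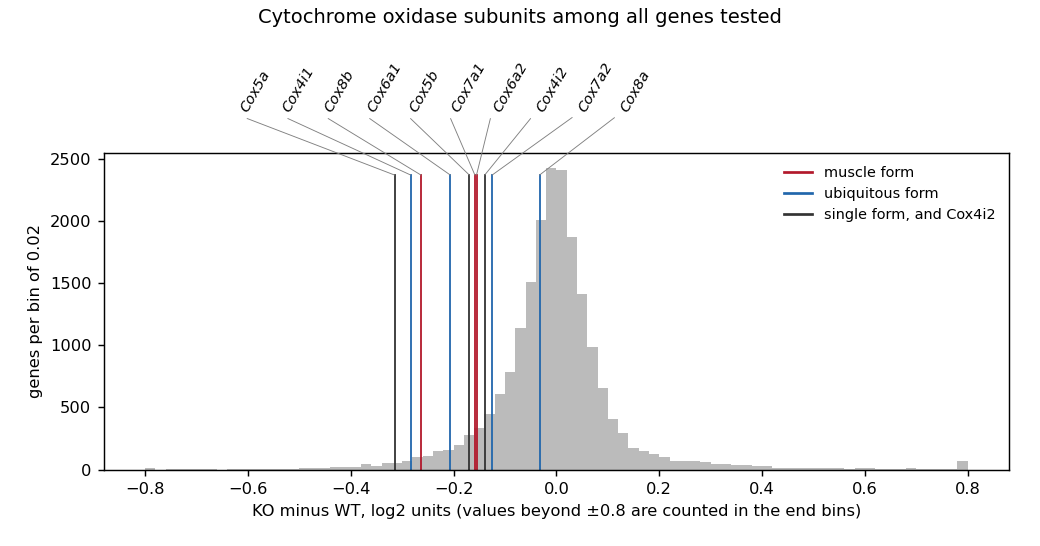
Histogram of the knockout minus wild type differences of 19938 genes (x axis, log2 units; y axis, genes per bin), with a vertical line for each of the 10 genes coloured by form. Cox5a at -0.31 is the leftmost line and Cox8a at -0.03 lies beside the peak.

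Whether the muscle form differed more than its partner was tested within arrays. For each array the log2 value of the partner was subtracted from that of the muscle form. The result was set relative to the wild type mean, since levels of different probe sets cannot be compared. Comparing their changes assumes that probe sets of unlike brightness respond alike, which was not tested. An exact two-sided permutation test ran over the 35 ways to choose 3 of 7 arrays, whose smallest p is 0.0286. The p-values were adjusted over the 4 pairs compared. After that adjustment even the smallest p, if reached by a single pair, lies above 0.05. No pair passed, but a single pair could not have passed whatever its values. That outcome therefore does not decide whether any single pair differed. For Cox8b minus Cox8a the knockout arrays stood at -0.11, -0.20 and -0.38, against 0.09, -0.14, -0.06 and 0.11 in wild type. The groups overlapped through knockout replicate 1 and wild type replicate 2. The pair differed by -0.23 ± 0.10 (SE; exact permutation p = 0.0857, adjusted p = 0.343), and by -0.154 without knockout replicate 3, the knockout array in which Cox8a read highest.

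Cox7a1 and Cox7a2 kept nearly the same distance in every array. Knockout values were -0.07, -0.04 and 0.01 and wild type values 0.004, 0.02, 0.01 and -0.03, which overlapped. The difference of the pair was -0.03 ± 0.02 (exact permutation p = 0.2, adjusted p = 0.4), small beside the -0.16 and -0.13 by which its genes differed. After quantile normalization the pair differed by -0.072 (exact permutation p = 0.0857), with Cox7a1 at -0.181 and Cox7a2 at -0.109. For Cox6a2 minus Cox6a1 the knockout arrays stood at 0.09, 0.15 and -0.08 and the wild type arrays at 0.18, -0.18, -0.08 and 0.07. This pair differed by 0.05 ± 0.11 (exact permutation p = 0.657), and by -0.008 without wild type replicate 2. For Cox4i2 minus Cox4i1, which is no muscle pair, knockout values of 0.01, 0.20 and 0.22 overlapped wild type values of -0.20, -0.10, 0.20 and 0.09, a difference of 0.14 ± 0.12 (exact permutation p = 0.343). A p that misses the threshold does not show that the forms changed alike, and the standard errors of the other pairs, 0.10 to 0.12, were several times that of the VIIa pair.

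**Figure D4:**
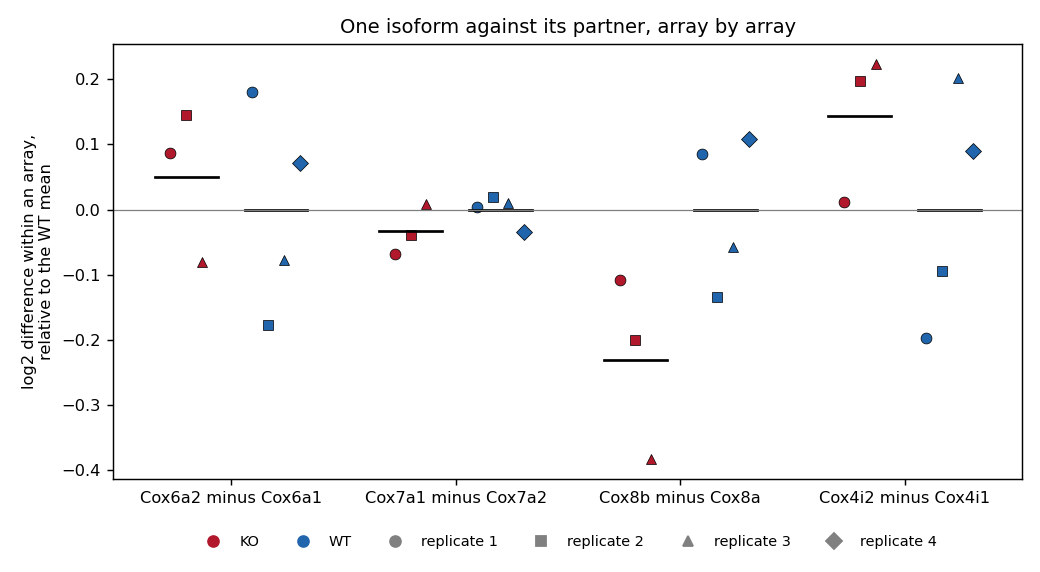
Log2 difference between the members of each isoform pair within an array, relative to the wild type mean (y axis), in 3 knockout arrays (red) and 4 wild type arrays (blue), with bars at the group means. The Cox8b and Cox8a pair has the lowest knockout mean (-0.23), the Cox7a1 and Cox7a2 pair the tightest points, and the groups overlap in all 4 pairs.

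Averaged by form, as a description with no test, the 3 muscle forms stood at -0.14, -0.20 and -0.23 in knockout arrays relative to the wild type mean, where wild type arrays ran from -0.04 to 0.06. The 3 ubiquitous partners stood at -0.11, -0.17 and -0.08, with wild type between -0.07 and 0.10. Cox5a and Cox5b together stood at -0.21, -0.22 and -0.30, with wild type between -0.04 and 0.04. Each knockout array was below the wild type mean for all 3 sets. Knockout replicate 1 held the highest value of its group for 6 of the 10 genes, and wild type replicate 1 for 6 of the 10 in its own.

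Within a genotype, some members varied together from array to array and others in opposite directions. Over the 7 arrays Pearson's r between members had a median of 0.712 in 45 pairs of genes, part of which is the difference between genotypes. After each group's mean was removed, Cox5b followed Cox6a2 closely (r = 0.983) and Cox4i1 followed Cox8b (r = 0.951), while r was positive in 26 of the 45 pairs. Cox4i2 ran against Cox5b (-0.904) and Cox6a2 (-0.886). These values come from 7 arrays that the genes share, so they describe these arrays and carry no test. By r over the 7 arrays, the non-member genes most like the mean of the 3 muscle forms were Cd200 (0.992), a membrane glycoprotein, the complex I subunit gene Ndufs1 (0.991), the mitochondrial ribosomal gene Mrpl18 (0.990), the coenzyme Q synthesis gene Coq2 (0.988) and the complex I subunit gene Ndufb11 (0.9845). Those most like the mean of the ubiquitous partners were Sod1 (0.993), the cytosolic superoxide dismutase, Mlst8 (0.986), a subunit of mTOR complexes, Garem1 (0.980), St3gal3 (0.977) and Nudt13 (0.975). Likeness to means that are lower in knockout arrays fixes the sign of these genes' differences, which were -0.36 (Cd200) to -0.12 (Ndufb11) in the first group and -0.19 (Garem1) to -0.10 (St3gal3) in the second.

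Other structural subunits of the oxidase were split. Of 12 listed, 8 had a probe set with 1 symbol. In limma 0 passed an adjusted p of 0.05, while 3 were lower at an unadjusted p under 0.05 and 0 higher, beside 6.69% and 3.93% of all genes. Ndufa4, first assigned to complex I and later found to be part of the oxidase, read 11.08, 10.9998 and 11.05 in knockout muscle, against 11.47, 11.38, 11.39 and 11.32 in wild type. Its groups did not overlap, and it differed by -0.35 ± 0.04 (limma adjusted p = 0.083), more than any of the 10 members. Cox6b1, which faces the intermembrane space, differed by -0.17 ± 0.07 and Cox6c by -0.10 ± 0.03. Cox7b differed by -0.05 ± 0.04 and Cox7a2l, a factor of respiratory supercomplexes, by 0.01 ± 0.02. The testis forms Cox7b2 (-0.05 ± 0.04), Cox6b2 (0.06 ± 0.08) and Cox8c (0.04 ± 0.11), all dim, had differences within their standard errors or close to them.

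The neighbouring steps and the regulators were read from lists. By the unadjusted rule 6.69% of all genes were lower and 3.93% higher, and 53.3% had a difference below 0. A small count in a list is not set apart from these shares. Of 11 measured genes of complex III and cytochrome c, 10 were below wild type, 7 of them at an unadjusted p under 0.05 and 0 at an adjusted p under 0.05, with a median difference of -0.11. Uqcrfs1, the Rieske iron-sulphur protein, differed by -0.31 ± 0.06 and the core protein gene Uqcrc1 by -0.22 ± 0.04. The somatic cytochrome c gene Cycs, which hands electrons to the oxidase, differed by -0.02 ± 0.08. Of 16 measured regulators of oxidase genes, 2 were lower at an unadjusted p under 0.05 and 0 passed adjustment, with a median of -0.02. Those were Lonp1, a mitochondrial protease also linked to subunit IV, at -0.21 ± 0.05, and the nuclear receptor gene Esrra at -0.11 ± 0.04. Nrf1 differed by 0.02 ± 0.05 and Ppargc1a, the PGC-1α coactivator, by -0.09 ± 0.24.

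Muscle forms and ubiquitous partners outside the oxidase were read as lists, and their pair contrasts were not tested. Beside their counts, 6.69% of all genes were lower by the unadjusted rule. Of 5 muscle forms (Slc25a4, Eno3, Pgam2, Ckm and Pygm) 1 was lower at an unadjusted p under 0.05 and 0 passed adjustment, with a median of -0.01. It was Slc25a4, the muscle ADP/ATP carrier of the mitochondrial inner membrane, at -0.13 ± 0.03, and Ckm, muscle creatine kinase, differed by -0.02 ± 0.03. Of 4 measured ubiquitous partners (Slc25a5, Pgam1, Ckb and Pygb) 0 passed either rule, with a median of -0.02; Pgam1 differed by -0.13 ± 0.06 and Ckb by -0.02 ± 0.04.

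Most slow fibre genes had the opposite sign to the oxidase genes. Among all genes 3.93% were higher and 6.69% lower by the unadjusted rule. Slow and oxidative fibre genes were above wild type for 8 of 9, 6 of them at an unadjusted p under 0.05 and 0 after adjustment, with a median of 0.39. Tnni1, slow troponin I, differed by 1.00 ± 0.17 and Atp2a2, the slow calcium pump, by 0.76 ± 0.15. Their mean ran from 9.15 to 9.69 in knockout and from 8.88 to 9.10 in wild type arrays. Knockout replicate 2 was lowest of its group for these genes (9.15) and for 4 members (Cox8b, Cox4i1, Cox6a1 and Cox8a). Knockout replicate 3 was highest of its group for these genes (9.69) and lowest for 5 members (Cox5a, Cox5b, Cox6a2, Cox7a1 and Cox7a2). Of 10 fast fibre genes 0 passed either rule (median 0.01), with Mylpf at 0.14 ± 0.06 and Tnnc2 at -0.07 ± 0.03. The mean of the fast fibre genes ran from 13.73 to 13.79 in wild type arrays, where the highest value of any probe set was 14.65. Whether such bright probe sets understate differences was not tested. The part of fibre type in the oxidase values was not tested.

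Markers of other cells also differed in these arrays. The counts stand beside 6.69% of all genes lower and 3.93% higher by the unadjusted rule. Endothelial markers were below wild type for 10 of 10, 7 at an unadjusted p under 0.05 and 0 after adjustment, with a mean level of 9.15 to 9.27 in knockout and 9.46 to 9.64 in wild type arrays; Cdh5 differed by -0.32 ± 0.06 and Emcn by -0.59 ± 0.11. Pericyte and smooth muscle markers, which matter for Cox4i2 because vascular mural cells express it in mice, were below wild type for 9 of 11, 6 at an unadjusted p under 0.05 and 0 after adjustment. Their mean level ran from 9.17 to 9.23 in knockout and from 9.31 to 9.42 in wild type arrays, and Notch3 differed by -0.29 ± 0.05 and Kcnj8 by -0.28 ± 0.05. Macrophage markers were above wild type for 9 of 9, 8 at an unadjusted p under 0.05 and 2 after adjustment (Lyz2 at 0.94 ± 0.05 and Tyrobp at 0.63 ± 0.05), with a mean level of 8.78 to 8.89 in knockout against 8.08 to 8.36 in wild type. The array has no true zero, so no marker can be called absent. Their part in the oxidase values was not tested.

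The remaining cell lists were less even, and none of their genes passed adjustment. Here too 6.69% of all genes were lower and 3.93% higher by the unadjusted rule. Fibro-adipogenic markers were above wild type for 6 of 8, 3 at an unadjusted p under 0.05 (Dpt at 0.42 ± 0.08 and Pdgfra at 0.53 ± 0.11), with a mean level of 10.38 to 10.76 in knockout and 10.17 to 10.55 in wild type arrays. Adipocyte markers were below for 4 of 5, 2 by that rule (Adipoq at -0.34 ± 0.11 and Retn at -0.36 ± 0.14), at 7.48 to 7.72 in knockout and 7.67 to 7.94 in wild type. Satellite cell markers had 1 higher (Vcam1 at 0.30 ± 0.11) and 1 lower (Cdh15 at -0.09 ± 0.03) of 5, at 7.76 to 7.84 in knockout and 7.71 to 7.80 in wild type. Of 4 Schwann cell markers (Sox10 at -0.05 ± 0.04 and Mbp at -0.04 ± 0.03) and 2 erythroid markers (Slc4a1 at 0.10 ± 0.16 and Alas2 at -0.29 ± 0.45), 0 passed. Schwann means lay at 8.56 to 8.62 in knockout and 8.57 to 8.61 in wild type. Erythroid means lay at 7.65 to 8.94 in knockout and 8.13 to 8.60 in wild type.

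**Figure D5:**
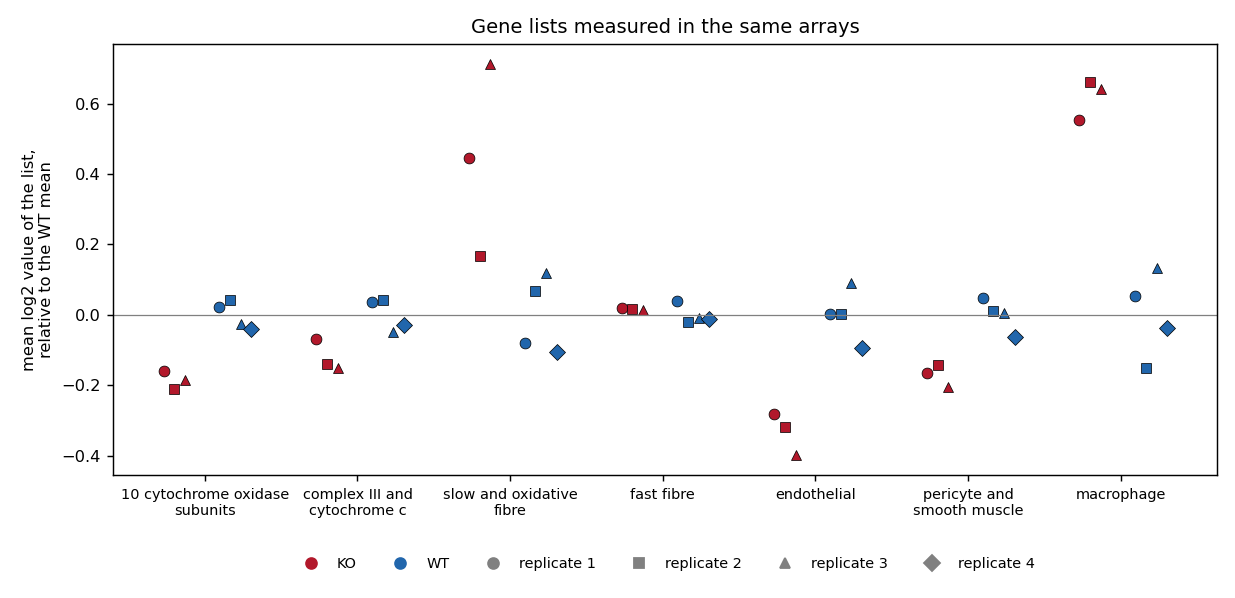
Mean log2 value of the 10 oxidase genes and of gene lists relative to the wild type mean (y axis) in 3 knockout arrays (red) and 4 wild type arrays (blue). The oxidase genes lie between -0.21 and -0.16 in knockout arrays, below all wild type arrays, while slow and oxidative fibre genes and macrophage markers lie above wild type and endothelial and pericyte markers below.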

How the data were processed

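Per the labels' protocols, RNA was extracted with TRIzol and labelled with Ambion's WT Expression Kit. The deposited table gives 1 log2 expression value per probe set for the 7 arrays. For its software, normalization, genome build and log base: not given in the sources used here. Values ran from 4.41 to 14.65, above the 11.09 that natural logs of a 16-bit scan can reach, so the authors' values were read as log2. Of 28856 probe sets, 21789 had exactly 1 gene symbol in GEO's platform annotation and were tested, 1621 had several and 5446 were unnamed. Of those tested 21698 matched RefSeq's GRCm38.p6 gene table. For 999 genes with several probe sets, the brightest by mean over the 7 arrays stood for the gene.

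Differences and moderated standard errors came from limma 3.58.1 (lmFit, eBayes) in R 4.3.3, knockout minus wild type with no covariate, adjusted by Benjamini-Hochberg over the 21789 probe sets, with a threshold of 0.05. Values joined by ± to a difference are standard errors unless marked SD. Pair contrasts used exact permutation tests in Python 3.11.15, or exact sign flips where the replicate number was a block. The limma fit was tested on simulated data with planted changes larger than any member's difference, so its recovery of smaller ones was not tested. The permutation test was checked on made-up values with a known, large shift. The number of arrays limits the precision. Named were the 10 members, Prkaa1 and Prkaa2, the other oxidase subunits, the 2 genes of smallest p in each further list, and the 5 genes most like each set of forms. Cycs, Nrf1 and Ppargc1a were named after their values were seen. Members and lists were chosen with earlier results of these data known. Alternatives were array weights, dropping dim probe sets (10894 kept), centring on medians, quantile normalization, a prior that is trended and robust, all 28856 probe sets in place of the named ones, the mean of a gene's probe sets, the replicate number as a block, and leaving out each array. Columns left unused numbered 0.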

Additional observations from a re-analysis of the deposited data

Results flagged for a closer look

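Among 21 groups of 4 wild type values (10 members, 7 other subunits and 4 pair differences), 3 held an array far from the rest by Dixon's ratio of the gap to the range. All were subunits outside the 10 members. Cox6b1 read 12.66 in wild type replicate 1 and 12.47 to 12.48 in the other wild type arrays (ratio 0.935). Cox7b read 13.36 in the same array and 13.31 in the others (0.903). Cox6b2, which was dim, read 7.14 in wild type replicate 3 and 7.31 to 7.34 in the others (0.854). The ratio does not exist for Cox7a2l, whose wild type values were all equal. Chance flags about 1 in 20 such groups.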

How the results depend on the processing

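No member reached an adjusted p of 0.05 in limma under any of the 15 alternatives run or with the other probe set of Cox5b (chosen after seeing the data), and 148 of 151 member values kept a negative sign. The 3 that turned were all Cox8a. It was 0.015 without wild type replicate 2, and 0.004 or 0.013 without knockout replicate 1 or 2. Leaving out single arrays took it as low as -0.115. The count of 148 overstates stability. Dropping dim probe sets, the trended and robust prior and the use of all 28856 probe sets leave a difference unchanged. A mean of probe sets can change only Cox5b, and the replicate block repeats the differences without wild type replicate 4. The count of members lower at an unadjusted p under 0.05, 9 of 10, was 8 under array weights, 7 with the replicate number as a block and 7 to 8 when 1 array was left out, where 8.24%, 5.1% and 4.14% to 8.5% of all genes were lower by that rule. Members without overlap numbered 8 to 9 throughout. In the main fit 5.33% of all genes had that order, and the share is not given here for the alternatives. The order is easier to reach with fewer arrays, so these counts do not show stability. The other subunits lower at that p, 3, numbered 2 with the replicate block and 2 to 3 without 1 array. The pair difference of Cox6a2 and Cox6a1 ran from -0.008 (without wild type replicate 2) to 0.116 when 1 array was left out, and was 0.009 after quantile normalization. For Cox8b and Cox8a it ran from -0.292 to -0.154, and was -0.278 after quantile normalization. For Cox7a1 and Cox7a2 it ran from -0.054 to -0.016, and was -0.072 after that normalization. For Cox4i2 and Cox4i1 it ran from 0.078 to 0.211, and was 0.127 after that normalization. With the replicate block these were 0.075, -0.195, -0.045 and 0.174, with no adjusted exact sign-flip p under 0.333. That setting used replicate numbers 1 to 3, so its differences equal those without wild type replicate 4 and are no separate check. No pair passed in any alternative (lowest adjusted exact permutation p 0.171, after quantile normalization). A single pair could not have passed in any of them, nor in the main comparison. Same-numbered arrays deviated from their group means with r of 0.287, 0.159 and -0.197, so the numbers were not taken to pair samples. Among all genes, 5 passed an adjusted p of 0.05 in limma, and none did with the block. Leaving out knockout replicate 1 gave 6 lower and 8 higher, knockout replicate 2 gave 2 calls, knockout replicate 3 gave 1 lower and 5 higher, wild type replicate 2 gave 1, and each other wild type array gave none. Exact two-sided tests cannot go below 0.1 without a wild type array, 0.0667 without a knockout array and 0.25 with the block, so they say nothing about stability. The cause of these shifts was not tested. No detection call was used here, so how far Cox4i2, a little above the array medians, lay above background is unknown.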
